A study of Homo sapiens with 3 samples.

Results

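The retinoblastoma (RB) pathway and its regulators of G1, the phase before DNA synthesis, were followed as 10 genes among the 60609 that each count table lists. The rule was a list of names with no threshold on a measured value, drawn up with earlier results of these data known, and all 10 were found by gene symbol. They comprise the RB family (RB1, RBL1, RBL2), 3 inhibitors of cyclin-dependent kinases (CDKN2A, CDKN1A, CDKN1B), the D-type cyclins (CCND1, CCND2, CCND3) and cyclin E1 (CCNE1). Polyadenylated RNA was sequenced from NCI-H209, an established small cell lung cancer line, in 3 libraries. The sh490 and sh1362 libraries came from cells with a lentiviral hairpin, driven by doxycycline, against the Src-family kinase YES1. The shGFP library came from cells with the same kind of vector and a hairpin against GFP, which human cells lack. According to the labels, the inducer was 1 µg/mL doxycycline, renewed every 2 days. Each hairpin was represented by 1 library, so a difference of a single hairpin from shGFP has no replicate check, and the labels do not say that cultures were separate.

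In G1, cyclins of the D type activate CDK4 and CDK6, and cyclin E activates CDK2. These kinases phosphorylate the RB family proteins, which otherwise hold E2F transcription factors in a repressive state, so that genes for DNA synthesis are released as a cell enters S phase. Inhibitors of the INK4 type, such as the p16 product of CDKN2A, act on CDK4 and CDK6, while p21 (CDKN1A) and p27 (CDKN1B) act on cyclin-CDK complexes more widely. Small cell lung cancers as a class lose RB1 function. NCI-H209 is known for a missense change in the pocket of RB1 that leaves an RB1 transcript, and gene-level counts do not tell that allele from any other.

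The libraries held 7791747 counts for sh490, 7421552 for sh1362 and 4899006 for shGFP. YES1, the targeted gene, had 163 reads with sh490, 216 with sh1362 and 1465 with shGFP, with an edgeR quasi-likelihood adjusted p of 0.00761. All 13 neuroendocrine markers looked for were detected in every library, with sums of 4425, 5859 and 4312 CPM (counts scaled by library size with TMM factors) in sh490, sh1362 and shGFP. Red cell markers summed to 18.8 CPM in sh490, 20.5 CPM in sh1362 and 737.2 CPM in shGFP, mostly globin, with AHSP at 0 throughout. Leukocyte markers summed to 2.15, 3.53 and 9.12 CPM in the same order, with CD3E at 0 in all libraries. Fibroblast markers lay between 7.47 and 11.1 CPM. Most of that was COL1A1, at 8.85, 6.11 and 7.26 CPM in sh490, sh1362 and shGFP, with DCN and FAP at 0 throughout. Endothelial markers were at 11.6, 5.43 and 20.1 CPM in the same order. Most of that was KDR, at 10.2, 3.26 and 16.6 CPM, while VWF, CDH5 and CLDN5 had at most 4 reads in any library. Sums resting on 1 gene do not show that these cell types were present. Whether RNA of other cell types had any part in the results below was not tested.

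The control pattern of the line was dominated by CCND2 among the D-type cyclins, by RBL2 in the RB family and by CDKN1B among the inhibitors. Levels between genes were compared as TPM, a scale that sums to the same total in every library and divides counts by exon length. In shGFP the order was CCND2 at 483 TPM, CDKN1B at 156 TPM, RBL2 at 111 TPM, CCND1 at 97.3 TPM, CDKN1A at 79.0 TPM, CCND3 at 36.0 TPM, RB1 at 28.0 TPM, RBL1 at 15.8 TPM, CCNE1 at 11.8 TPM and CDKN2A at 8.85 TPM. Exact 95% counting intervals of neighbours in that order overlapped at the margin for RBL2 (104 to 118) and CCND1 (89.7 to 105), and for CCND3 (31.8 to 40.6) and RB1 (24.5 to 31.9). They overlapped widely for RBL1 (13.1 to 18.8) and CCNE1 (8.28 to 16.2), and for CCNE1 and CDKN2A (6.55 to 11.7). Those widely overlapping neighbours were not told apart beyond counting error. An overlap at the margin does not by itself show that levels are alike. Such intervals cover counting error only, and the labels mention no molecular identifiers. CCND2 stood at percentile 98.3 among the 11638 genes averaging at least 5 CPM, ranked by TPM in shGFP, with RB1 at 52.0 and CDKN2A at 18.6.

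**Figure D1:**
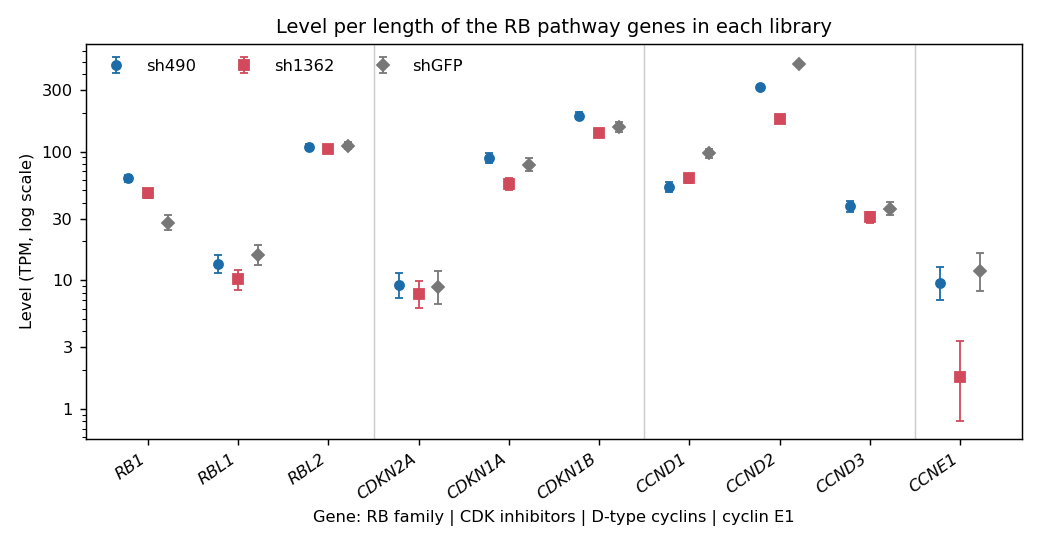
Level of the 10 genes in TPM (log axis) in the sh490, sh1362 and shGFP libraries, with bars for exact 95% Poisson intervals of the count. RB1 lies higher in both hairpin libraries than in shGFP, CCND1 and CCND2 lie lower, and CCNE1 stands at 1.765 TPM in sh1362, from 9 counts, against 9.57 TPM in sh490 and 11.8 TPM in shGFP.

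None of the 10 genes passed the test across all genes. With both hairpins as 2 samples against shGFP, edgeR's quasi-likelihood test at a Benjamini-Hochberg adjusted p under 0.05 called 0 of 15708 genes higher (0%) and 4 lower (0.0255%), and none of the 10 was among them; DESeq2 also called 0 higher and 4 lower. Genes called lower by edgeR were YES1, the targeted gene, and the globin genes HBB, HBA1 and HBA2. HBB had 136 reads with sh490, 140 with sh1362 and 3124 with shGFP. All 10 RB pathway genes were kept by the filter on low counts. At an unadjusted p under 0.05, RB1 was higher and CCND1 and CCND2 were lower, against 2.27% of all genes higher and 2.08% lower. Their adjusted p was 0.986 each in the edgeR fit. The test has 1 residual degree of freedom among samples, which comes from the difference between the hairpins, and it assumes that the lone shGFP library varies like them.

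By size alone, RB1 was the only gene of the group at least 2-fold higher with sh490 and none was at least 2-fold lower, where 1.39% of all genes were higher and 1.42% lower. With sh1362 none was at least 2-fold higher and CCND2 alone was at least 2-fold lower, where 3.30% of all genes were higher and 6.01% lower. These counts cover the 9 genes averaging at least 5 CPM; CCNE1, at 4.99 CPM, lay just under that level, and CDKN2A, at 9.97 CPM, was the lowest above it. Of the 9, 1 was higher with both hairpins (RB1) and 4 lower with both (RBL1, RBL2, CCND1, CCND2), beside 33.8% and 34.5% of all genes. The place of RBL2 there depends on scaling. Its log2 fold with sh1362 was -0.01, and 0.03 with library totals taken without haemoglobin and mitochondrial genes. Over the 9, the median log2 fold for sh490 was 0.01 and for sh1362 -0.14, against 0.00 and -0.01 over all genes. Both sets of folds share the shGFP library.

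**Figure D2:**
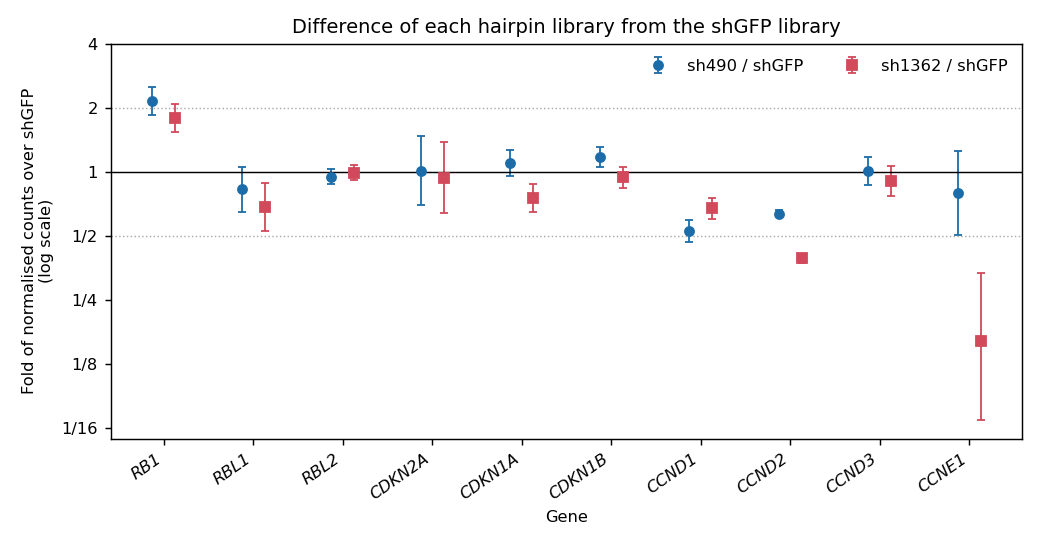
Fold of normalised counts of each hairpin library over shGFP (log axis, dotted lines at 2-fold), with exact 95% counting intervals. RB1 sits at 2.15 with sh490 and 1.80 with sh1362, CCND2 at 0.64 and 0.39, and RBL2, CDKN2A and CCND3 near 1 with both.

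RB1, the tumour suppressor that binds the activating E2F factors, gave the largest upward difference of the group. RB1 (ENSG00000139687.15, chromosome 13, 48303726 to 48599436 on the plus strand of GRCh38) had 813 reads with sh490, 633 with sh1362 and 231 with shGFP. Its level was 61.9 TPM in sh490, 47.3 TPM in sh1362 and 28.0 TPM in shGFP, so both hairpin libraries lay above the control. The fold over shGFP was 2.15 with sh490 (counting interval 1.85 to 2.496) and 1.80 with sh1362 (1.54 to 2.10). The combined log2 fold was 0.98 ± 0.30 (standard error, edgeR unadjusted p 0.0119, adjusted p 0.986), higher in 2 of 2 hairpin libraries. None of its exon bases is shared with an exon of another gene in the tables, unlike those of most members. In RNA from a whole culture, a change in the share of cells that hold a transcript and a change in its amount per cell cannot be told apart.

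RBL2 (p130), the family member that represses cell-cycle genes in resting cells together with E2F4, was the steadiest of the 3. RBL2 (chromosome 16, 53433977 to 53491648, plus strand) had 1606 reads with sh490, 1563 with sh1362 and 1032 with shGFP, equal to 108.5, 103.8 and 111 TPM. Its folds over shGFP were 0.95 (0.88 to 1.03) with sh490 and 0.99 (0.92 to 1.07) with sh1362, and both intervals include 1. Of its exon bases 18.3% are shared with other genes, chiefly an unnamed gene and AKTIP on the other strand, and reads there were left out by the counting.

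RBL1 (p107), itself an E2F target that accumulates as cells enter S phase, lay a little lower with both hairpins. RBL1 (chromosome 20, 36996349 to 37095997, minus strand) had 163 reads with sh490, 125 with sh1362 and 120 with shGFP, which is 13.4, 10.1 and 15.8 TPM. The folds were 0.83 (0.65 to 1.06) and 0.68 (0.53 to 0.88), so counting error alone covers the difference with sh490 but not that with sh1362. In edgeR the log2 fold was -0.40 ± 0.35 (standard error, unadjusted p 0.287, adjusted p 0.986).

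The balance within the RB family differed between libraries. RBL2 exceeded RB1 per length 1.75 times in sh490 (counting interval 1.61 to 1.91), 2.19 times in sh1362 (1.997 to 2.41) and 3.97 times in shGFP (3.435 to 4.59). RB1 exceeded RBL1 4.60 times in sh490 (3.89 to 5.48), 4.675 times in sh1362 (3.85 to 5.71) and 1.78 times in shGFP (1.42 to 2.23). These ratios are taken within a library and do not depend on how libraries are scaled. RB1 made up 33.7% of the family's summed TPM in sh490, 29.4% in sh1362 and 18.1% in shGFP, while the sum itself was 184, 161 and 155 TPM.

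**Figure D3:**
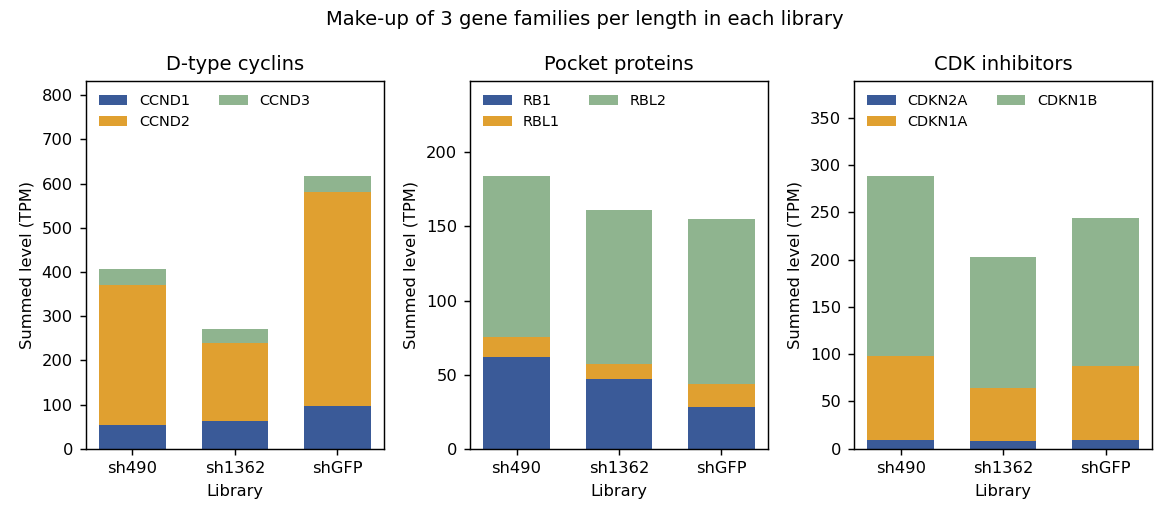
Stacked levels in TPM (linear axis from 0) of the D-type cyclins, the RB family pocket proteins and the 3 CDK inhibitors in the sh490, sh1362 and shGFP libraries. The D-type cyclin stack is 407 TPM in sh490, 271 TPM in sh1362 and 616.5 TPM in shGFP, with CCND2 the largest segment in each.

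Among the D-type cyclins, which respond to growth signals and bring CDK4 and CDK6 to RB, 2 of 3 lay lower with both hairpins. CCND2 (ENSG00000118971.8, chromosome 12, 4273762 to 4305353, plus strand) had 4625 reads with sh490, 2646 with sh1362 and 4429 with shGFP, although shGFP was the library of fewest reads. The levels were 317 TPM in sh490, 178 TPM in sh1362 and 483 TPM in shGFP, with the control above both hairpins. Its fold was 0.64 (0.61 to 0.66) with sh490 and 0.39 (0.37 to 0.41) with sh1362, and the level in sh1362 was 0.61 times that in sh490 (0.59 to 0.64). The edgeR log2 fold was -0.96 ± 0.33 (standard error, unadjusted p 0.0199, adjusted p 0.986), lower in 2 of 2 hairpin libraries. Some 13.9% of CCND2 exon bases are shared with other genes, where reads were not counted for either. With library totals taken without haemoglobin and mitochondrial genes, the log2 folds were -0.61 for sh490 and -1.31 for sh1362, beside -0.65 and -1.35 with them.

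CCND1, a cyclin often low in cells without RB function, was the other of the pair. Ranked by TPM among genes averaging at least 5 CPM, it stood at percentile 84.3 in shGFP. Such a rank within a library does not compare the line with cells that have RB function, and no such cells were measured. The percentile of CCND1 was 69.8 in sh490 and 76.4 in sh1362. CCND1 (ENSG00000110092.3, chromosome 11, 69641087 to 69654474, plus strand) had 522 reads with sh490, 620 with sh1362 and 601 with shGFP, equal to 53.05, 61.9 and 97.3 TPM. Both hairpin libraries were below the control, and here sh490 was the lower. LTO1, on the other strand, shares 10.3% of the exon bases. The folds were 0.53 (0.47 to 0.60) with sh490 and 0.68 (0.60 to 0.76) with sh1362. In the edgeR fit the log2 fold was -0.73 ± 0.29 (standard error, unadjusted p 0.0342, adjusted p 0.986).

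CCND3 was close to the control with both hairpins. It had 442 reads with sh490, 370 with sh1362 and 267 with shGFP (chromosome 6, 41934933 to 42050357, minus strand), which gave 37.4, 30.8 and 36.0 TPM. Its folds were 1.01 (0.87 to 1.18) and 0.91 (0.77 to 1.07), with both intervals including 1. Within a library, CCND2 exceeded CCND3 8.47 times in sh490 (7.68 to 9.36), 5.79 times in sh1362 (5.19 to 6.47) and 13.4 times in shGFP (11.9 to 15.25). CCND2 exceeded CCND1 5.97 times in sh490 (5.45 to 6.55), 2.875 times in sh1362 (2.63 to 3.14) and 4.96 times in shGFP (4.56 to 5.42). CCND2 was the most abundant D-type cyclin per length in each library, at 77.8%, 65.8% and 78.4% of the summed TPM in sh490, sh1362 and shGFP.

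Each of the 3 CDK inhibitors lay above shGFP with sh490 and below it with sh1362, with folds between 0.75 and 1.18. Counting intervals excluded 1 only for CDKN1B with sh490 and CDKN1A with sh1362. Of all 11638 genes averaging at least 5 CPM, 3696 were likewise not on the same side of shGFP with both hairpins. CDKN1B (p27; chromosome 12, 12715058 to 12722369, plus strand) had 990 reads with sh490, 736 with sh1362 and 512 with shGFP, or 189.5, 138.5 and 156 TPM, so the control lay between the hairpins. The folds were 1.18 (1.06 to 1.315) with sh490 and 0.94 (0.84 to 1.06) with sh1362. CDKN1A (p21, a target of p53; chromosome 6, 36676460 to 36687339, plus strand) had 555 reads with sh490, 354 with sh1362 and 308 with shGFP, or 89.3, 56.0 and 79.0 TPM. Its folds were 1.10 (0.95 to 1.27) and 0.75 (0.64 to 0.88), and sh1362 stood at 0.68 times sh490 (0.60 to 0.78). The edgeR log2 folds were 0.08 ± 0.29 for CDKN1B and -0.11 ± 0.33 for CDKN1A (standard errors, adjusted p 0.993 for both).

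CDKN2A, which encodes the INK4 inhibitor p16 and, from another first exon and reading frame, the MDM2 inhibitor ARF, was low and even. CDKN2A (chromosome 9, 21967753 to 21995301, minus strand) had 81 reads with sh490, 70 with sh1362 and 49 with shGFP, equal to 9.185, 7.80 and 8.85 TPM. The folds were 1.01 (0.70 to 1.47) and 0.94 (0.64 to 1.38), and a difference within those bounds was not detectable at this depth. The counts are summed over the gene and do not separate p16 from ARF, and 15.4% of the exon bases are shared with CDKN2B-AS1 on the other strand. CDKN1B exceeded CDKN2A per length 20.6 times in sh490, 17.75 times in sh1362 and 17.6 times in shGFP, with overlapping counting intervals of 16.4 to 26.2, 13.9 to 23.0 and 13.1 to 24.15.

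CCNE1, the activator of CDK2 at the entry to S phase, was the member on which the hairpins differed most. CCNE1 (ENSG00000105173.14, chromosome 19, 29811991 to 29824312, plus strand) had 48 reads with sh490, 9 with sh1362 and 37 with shGFP. Its levels were 9.57, 1.765 and 11.8 TPM, so sh1362 lay apart from the other two libraries. The fold over shGFP was 0.79 (0.50 to 1.25) with sh490 and 0.16 (0.068 to 0.34) with sh1362, and sh1362 stood at 0.20 times sh490 (0.087 to 0.41). The edgeR log2 fold was -1.06 ± 0.85 (standard error, unadjusted p 0.2497, adjusted p 0.986). CCNE2, the related cyclin E2, had 159 reads with sh490, 81 with sh1362 and 104 with shGFP, and the ratio of CCNE2 to CCNE1 per length was 1.85 in sh490 (1.335 to 2.62), 5.04 in sh1362 (2.53 to 11.4) and 1.57 in shGFP (1.07 to 2.36). Among the 9 members above 5 CPM, none differed at least 2-fold between the hairpins in either direction, where 2.02% of all genes were higher and 3.88% lower with sh1362 than with sh490.

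E2F factors bind words of the form TTTCCCGC, TTTGGCGC, TTTCGCGC or TTTGCCGC. The promoter windows of the pathway are shown because all of its measured E2F target genes above 5 CPM lay lower with sh1362, UNG only just. Windows of 300 bases, from 250 before to 50 after a gene's start, came from RefSeq (GRCh38.p14). A window was found for 8 members, and CCND1 and CCND2 have none in that table. RB1's entry, counted among the 8, belongs to a start inside the gene and is not shown. The lack of a word there says nothing of the promoter at the gene's first start. These words, searched on both strands and letting overlapping matches count, stood in the windows of 1 of the 8 members (RBL1), against 3.99% of the 27305 genes in the table. In the sequences, each 5′ to 3′ along the gene's strand, capitals mark the words. RBL1 (chr20:37095948-37096247, minus strand) holds TTTCGCGC beginning 26 bases and TTTGGCGC beginning 16 bases before the start. CCNE1 (chr19:29811741-29812040, plus strand), shown whole beside it as the member that differed most between the hairpins, holds none, which says only that these letters are not in this window.
RBL1: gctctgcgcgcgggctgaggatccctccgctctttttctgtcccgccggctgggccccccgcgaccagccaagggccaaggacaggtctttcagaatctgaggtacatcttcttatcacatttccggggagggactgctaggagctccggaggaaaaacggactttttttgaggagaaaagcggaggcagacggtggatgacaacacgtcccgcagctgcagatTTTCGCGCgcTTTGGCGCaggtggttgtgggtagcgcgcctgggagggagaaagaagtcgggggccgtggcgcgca
CCNE1: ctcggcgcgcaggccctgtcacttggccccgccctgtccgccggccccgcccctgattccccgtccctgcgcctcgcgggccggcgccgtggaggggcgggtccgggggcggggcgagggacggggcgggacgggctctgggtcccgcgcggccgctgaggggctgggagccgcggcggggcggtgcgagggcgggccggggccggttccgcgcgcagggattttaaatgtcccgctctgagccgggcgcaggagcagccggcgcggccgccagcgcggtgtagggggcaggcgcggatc

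For comparison, stretches of 80 bases around the words are given for 5 other genes of the pathway lists that carry a word. They are E2F1 (chr20:33686369-33686448, minus strand), E2F2 (chr1:23531233-23531312, minus strand), CDC25A (chr3:48188419-48188498, minus strand), CDC6 (chr17:40287849-40287928, plus strand) and MCM6 (chr2:135876520-135876599, minus strand). They were picked after their values were seen. MCM6 carries 4 matches in 2 overlapping pairs, since TTTGGCGC and the reverse of TTTCGCGC share bases.
E2F1: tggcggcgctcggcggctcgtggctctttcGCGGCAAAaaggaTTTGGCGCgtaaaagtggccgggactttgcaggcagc
E2F2: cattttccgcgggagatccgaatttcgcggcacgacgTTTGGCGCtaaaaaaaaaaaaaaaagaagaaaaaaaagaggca
CDC25A: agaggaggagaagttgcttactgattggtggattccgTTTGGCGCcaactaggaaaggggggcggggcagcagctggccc
CDC6: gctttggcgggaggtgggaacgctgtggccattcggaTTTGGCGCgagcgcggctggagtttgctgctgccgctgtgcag
MCM6: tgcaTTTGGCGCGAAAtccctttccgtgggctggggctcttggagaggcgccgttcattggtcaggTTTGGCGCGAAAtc

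Of the E2F target list of G1/S genes, 16 of the 25 genes with a window carried a word, as did 4 of 8 E2F and DP factors. Over all genes of 5 CPM or more with a window, the 628 with a word had a median log2 fold of -0.03 for sh490 and -0.08 for sh1362, against 0.01 and -0.0045 in the 8710 without. At least 2-fold lower with sh1362 were 8.44% of genes with a word and 5.56% without, and with sh490 0.796% and 1.26%. A match is a description of the letters and not evidence of a site in use.

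The genes that E2F factors control lay lower with sh1362 than with sh490 or shGFP, and 0 of 29 passed the edgeR test. Of the 28 E2F target genes above 5 CPM, 22 lay below the control with sh490 and 28 with sh1362. Of all 11638 genes, 5809 and 5907 did. UNG was only just below with sh1362, at a fold of 0.99 (0.85 to 1.15), an interval that includes 1. As for RBL2, its side of the control may depend on scaling. At least 2-fold lower were 0 of the 28 with sh490, beside 1.42% of all genes, and 10 with sh1362, beside 6.01%. The list was chosen with earlier results of these libraries known, so its direction is not independent evidence. The median of their log2 folds stood at -0.23 for sh490 and -0.94 for sh1362, beside 0.00 and -0.01 over all genes. All 28 also lay below sh490 with sh1362, by a median of 0.64 on the log2 scale. CDC6, which loads the replicative helicase, had 326 reads with sh490, 204 with sh1362 and 346 with shGFP, with log2 folds of -0.79 and -1.36. TYMS, which makes thymidylate, had log2 folds of -0.63 and -1.87, ORC1 -0.57 and -1.24, and CCNA2, cyclin A2, -0.34 and -1.40 (edgeR adjusted p 0.986 for each). RBL1 and CCNE1, members of the group that are also E2F targets, lay on the same side, while RB1 lay on the other.

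Of 10 E2F and DP factors, none passed the test; with both hairpins 5 were below shGFP, 2 were above it, and 3 were split. Over all genes of at least 5 CPM, 34.5% lay lower and 33.8% higher with both hairpins. Those shares stand beside the counts of this list and of the lists that follow. E2F8 had log2 folds of -0.68 and -2.22, E2F2 -0.56 and -1.62, E2F7 -0.29 and -0.93, and E2F1 -0.39 and -0.79. E2F2 and E2F1 are activators, E2F7 and E2F8 repressors of the same targets. The 2 that lay higher with both, named after their values were seen, were E2F4, the partner of RBL2, at 0.39 and 0.55, and the repressor E2F6 at 0.43 and 0.46. E2F4 had 343 reads with sh490, 357 with sh1362 and 159 with shGFP. In the MuvB group, whose core joins RBL2 and E2F4 in the DREAM repressor, 5 of the 6 genes above 5 CPM lay lower with both. With scaling by library totals only, 4 did. Of the group's 7 genes, 0 passed the test. MYBL2, which takes over MuvB later in the cycle, had log2 folds of -0.18 and -1.53, FOXM1 -0.20 and -0.94, LIN54 -0.0035 and -0.93, and LIN52 -0.24 and -0.36.

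Of the 8 G1 kinases and activators, with both hairpins 5 were below shGFP and 1 (CDK7) above it, and 0 passed the test. CDC25A, the phosphatase that activates CDK2, had 298 reads with sh490, 124 with sh1362 and 300 with shGFP, or log2 folds of -0.72 and -1.87 (edgeR adjusted p 0.986). CDK2 had -0.19 and -1.07, CCNE2 -0.10 and -0.95, and CDK6, a partner of the D-type cyclins, -0.51 and -0.54. CDK4, the other such partner, had 125 TPM in sh490, 84.4 TPM in sh1362 and 111 TPM in shGFP, and the ratio of CDK6 to CDK4 per length was 0.31 in sh490 (0.28 to 0.34), 0.41 in sh1362 (0.37 to 0.46) and 0.48 in shGFP (0.43 to 0.54). Other inhibitors were measured above 5 CPM for 2 of 4 genes. CDKN2C (p18) had log2 folds of 0.46 and -0.35 and CDKN2D (p19) 0.13 and -1.08, so neither lay on the same side with both hairpins.

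Of 10 genes above 5 CPM for the turnover of p27 and the G1 cyclins, 4 lay lower with both, 4 higher with both and 2 opposite, with 0 of 11 past the test. CKS1B, the cofactor of the ligase that degrades p27, had log2 folds of -0.38 and -0.77, UBE2C -0.07 and -0.86, and FBXW7, which targets cyclin E, -0.38 and -0.41. FZR1, an activator of the anaphase-promoting complex in G1, had 0.63 and 0.28. The list's median was 0.03 with sh490 and -0.22 with sh1362. Over all genes, 34.5% lay lower with both hairpins and 33.8% higher, so the list's counts were near those shares.

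CDKN1A is best known as a p53 target, and the other targets of p53 were spread to both sides. Of 22 genes above 5 CPM, CDKN1A included, 8 were above shGFP with both hairpins, 9 below it and 5 split. These counts lay near the shares over all genes, 33.8% higher and 34.5% lower with both hairpins. By size, 5 of the 22 were at least 2-fold lower with sh1362 and 1 higher, beside 6.01% and 3.30% of all genes. With sh490, 1 was lower and 1 higher, beside 1.42% and 1.39%. The median log2 folds were -0.02 and -0.16, and 0 of 25 tested passed. GADD45A, a stress-induced growth arrest gene, had 1306 reads with sh490, 1191 with sh1362 and 2133 with shGFP, or log2 folds of -1.42 and -1.45 (edgeR unadjusted p 0.000438, adjusted p 0.858). TNFRSF10B, a death receptor, had -0.76 and -1.999, and BAX, a death-promoting member of the BCL2 family, 0.38 and -1.57. TP53I3, an oxidoreductase, had 420 reads with sh490, 436 with sh1362 and 131 with shGFP, or log2 folds of 0.96 and 1.12 (edgeR unadjusted p 0.0105, adjusted p 0.986).

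**Figure D4:**
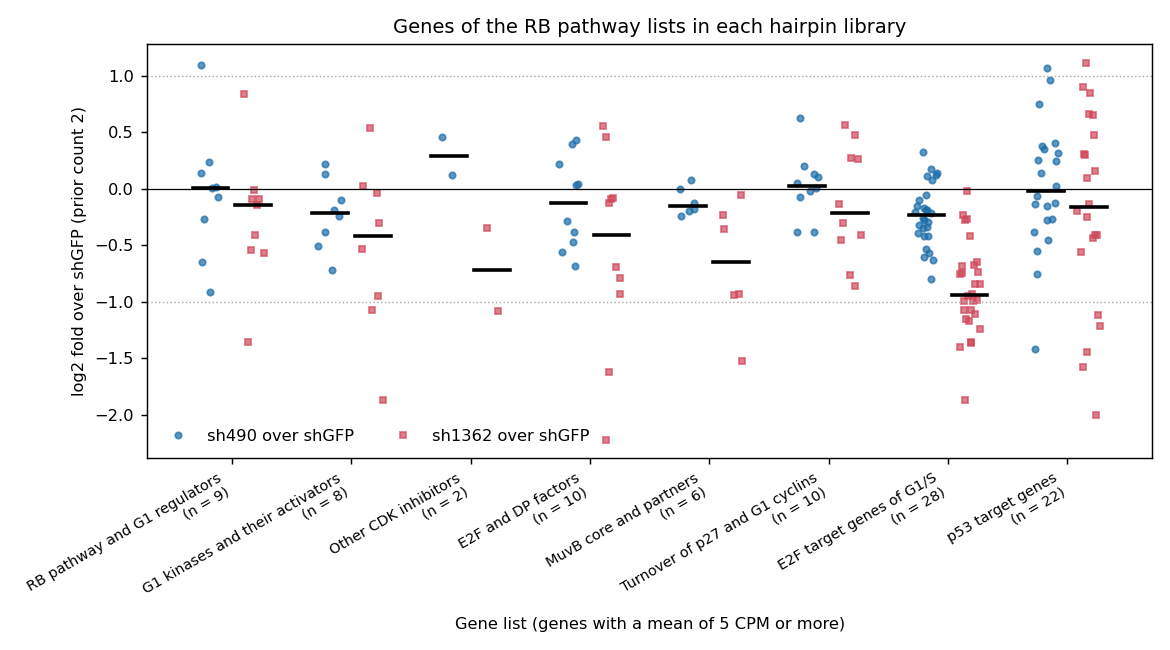
Log2 fold over shGFP (prior count 2) of each gene with at least 5 CPM on average in the lists, for sh490 and sh1362, with black bars at the medians and dotted lines at 2-fold. All 28 E2F target genes lie below 0 with sh1362, UNG only just (-0.02), at a median of -0.94, while their median with sh490 is -0.23.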

How the data were processed

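Each library has 1 deposited table of raw counts for every gene, with the gene's exon length, and the authors applied no normalization to them. The submitters' processing notes name FastQC 0.11.8, STAR 2.6.1c and the GRCh38 build. Counting used featureCounts 1.6.0 over exons of GENCODE version 32 with no strand option, per the file headers, so both strands were added and reads in several genes or places were left out. Symbols were matched for 60295 of 60609 gene IDs.

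Both YES1 hairpins, as 2 samples of 1 group, were tested against shGFP with edgeR 4.0.16 in R 4.3.3 (TMM, filterByExpr defaults, robust quasi-likelihood F test, two-sided, Benjamini-Hochberg adjusted p under 0.05 over all 15708 genes kept). The fit assumes that shGFP, alone in its group, varies as the hairpins do. Its p-values rest on the difference between the hairpin libraries, moderated across all genes. That difference may be technical, and it may also hold effects of a single hairpin. Single hairpins were set against shGFP by size, as differences of log2 CPM (prior count 2) in 11638 genes averaging at least 5 CPM, and as ratios of TMM-scaled counts with exact conditional binomial 95% intervals (SciPy 1.17.1). Standard errors given with edgeR log2 folds were derived as the absolute log2 fold divided by the square root of the F statistic. TPM was computed from the counts and the deposited exon lengths. A count of 0 allows up to 3 counts, which is 0.379 CPM in sh490, 0.407 CPM in sh1362 and 0.622 CPM in shGFP.

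Members and lists were chosen with earlier results of these data known. Genes named from a pathway list were those past the test and the 4 with the largest mean absolute log2 fold over both hairpins, among those averaging at least 5 CPM. CDK4, CDK7, E2F4, E2F6, MCM6, UNG and the neighbouring genes were named after their values were seen. Alternatives were RLE size factors, library totals, other filters, DESeq2 1.42.0, limma 3.58.1 (voom), other prior counts and leaving out each hairpin.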

Additional observations from a re-analysis of the deposited data

How the results depend on the processing

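All 10 genes kept the sign of their edgeR log2 fold, and none passed, under the 6 alternatives with a test (5 for CCNE1, which a floor of 5 CPM leaves out); the lowest adjusted p was 0.1595, for CCND2 without a filter on low counts, and its range was 0.1595 to 0.9998. RB1 ranged from 0.28 to 0.9998 in adjusted p and CCND1 from 0.758 to 0.9998. Across all genes, edgeR without a filter on low counts called 22 higher and 36 lower, and limma-voom called 2 lower; the cause was not tested. With a floor of 1 CPM, or with library totals taken without haemoglobin and mitochondrial genes, 2 RB pathway genes in place of 1 were at least 2-fold lower with sh1362, because CCNE1 then passed the floor. With that lower floor, which adds genes of few counts, 589 genes were at least 2-fold higher and 543 lower with sh490, and 1011 higher and 1210 lower with sh1362. Leaving out either hairpin leaves 1 library against 1 and gives no test. The log2 fold then lay between 0.84 and 1.10 for RB1, -1.35 and -0.65 for CCND2, and -2.39 and -0.32 for CCNE1. The sign turned for CDKN1A (-0.41 without sh490, 0.14 without sh1362), and in the same order for CDKN1B (-0.09, 0.24), CDKN2A (-0.09, 0.01) and CCND3 (-0.14, 0.01). Without the length correction RBL2, CCND1 and CDKN2A moved up, and CDKN1B and CCNE1 down, in the order in shGFP. No paired analysis was possible because the labels give no replicate numbers and shGFP is 1 library. Depth limits CCNE1 and CDKN2A most.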

Other observations

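The nearest genes above 5 CPM that do not overlap RB1, CCND2, CDKN2A and CCNE1 had these values. Beside RB1, ITM2B had 1426 reads with sh490, 1616 with sh1362 and 912 with shGFP, or log2 folds of -0.07 and 0.21 for the hairpins in that order, and FNDC3A had log2 folds of -0.96 and -1.49, where RB1 had 1.10 and 0.84. TIGAR, which lies 2410 bases from the end of CCND2, had 663 reads with sh490, 929 with sh1362 and 338 with shGFP, or log2 folds of 0.26 and 0.85, where CCND2 had -0.65 and -1.35. Per length the ratio of TIGAR to CCND2 was 0.109 in sh490 (counting interval 0.1002 to 0.118), 0.267 in sh1362 (0.247 to 0.287) and 0.0579 in shGFP (0.0517 to 0.0647). On the other side of CCND2, PARP11 had log2 folds of -0.45 and -0.01. MTAP, next to CDKN2A, had -0.10 and -0.30, and CDKN2A 0.01 and -0.09. LINC01239, 650899 bases away on the other side of CDKN2A, had 0.08 and -0.67. URI1, next to CCNE1, had -0.09 and 0.13, and CCNE1 -0.32 and -2.39. C19orf12, on its other side, had -0.48 and -0.64. These 4 members were chosen for description after their neighbours' values had been seen, and no neighbour was tested against its member.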
